A study of Homo sapiens with 8 samples.

Results

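The genes of the NRF2 circuit were examined for H3K27ac, the histone acetylation found at active promoters and enhancers, in A549 cells that had received control siRNA or NRF2 siRNA. The circuit was taken as 10 genes: NFE2L2, NFE2L1, KEAP1, CUL3, MAFF, MAFG, MAFK, BACH1, BACH2 and SQSTM1. Peaks of all 6 libraries were merged into 49186 regions where they overlapped, and the 50 regions that touched the body of such a gene or the 20 kb on each side of it were kept. The question put to them was whether the genes that make and control NRF2 themselves lose or gain acetylation when NRF2 is reduced.

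A549 is a lung adenocarcinoma line, and the title of the series gives it as a non-small cell lung cancer line with a KEAP1 mutation, a lesion that leaves NRF2 active without stress. Every library came from this line and was precipitated with the H3K27ac antibody MABI0309. The control group held 3 libraries with control siRNA introduced. The NRF2 siRNA group held 3 libraries, of which replicate 1 received siRNA 28 and replicates 2 and 3 received siRNA 30, and chromatin was collected 48 hours after transfection. The 2 input samples were not analysed here. The labels do not say whether the A549 stock was a single clone. The study describes its ChIP-seq as independent experiments, and replicate numbers are shared between the groups. The files hold no RNA or protein, so the removal of NRF2 itself was not measured in them, and acetylation over NFE2L2 does not measure it because an siRNA acts on the transcript.

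NRF2, the product of NFE2L2, is a transcription factor of the cap'n'collar family that binds DNA as a partner of a small MAF protein (MAFF, MAFG or MAFK) at antioxidant response elements, the sites through which detoxifying and antioxidant genes are switched on. In unstressed cells KEAP1 holds NRF2 on a CUL3 ubiquitin ligase, which sends it to the proteasome. BACH1 and BACH2 use the same small MAF partners and the same sites but repress, NFE2L1 is a related activator known for proteasome genes, and SQSTM1 encodes p62, an adaptor that can pull KEAP1 into autophagy. SQSTM1 and MAFG are known targets of NRF2 in other cells, which makes loops of the circuit.

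Depth cannot be read from the peak lists, whose length ran from 27941 to 41571 peaks in the control libraries and from 23885 to 39108 in the NRF2 siRNA libraries. In both groups replicate 1 had the shortest list and replicate 3 the longest. Peaks of the replicate 1 libraries carry names without a flow cell identifier and those of the other 4 carry one, so this naming, the lower depth and siRNA 28 cannot be told apart. The epithelial genes EPCAM, KRT8 and KRT18 had a peak in 6 of 6 libraries and CDH1 in 3, and the leukocyte genes PTPRC and CD3E had a peak in 0.

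The antioxidant response element was searched for in all regions as TGACNNNGC, with N for any base, on both strands. The form TGACTCAGC is of interest because it holds a whole AP-1 site, TGACTCA, inside the element, so that AP-1 and NRF2 or BACH1 dimers can read the same letters. It occurred 8 times in the 211.7 kb of the 50 circuit regions, a rate close to the 0.0356 copies per kb over all regions. These copies lay in only 6 of the circuit regions, and the start regions of MAFG and SQSTM1 were the regions that held 2. Of all regions within 10% of the length of the MAFG region 1.67% held as many copies, and of those like the SQSTM1 region 2.56%. These 2 hold the most copies of the 50, so the shares do not measure enrichment in the circuit. The stretches around these 4 copies are given first because these are the 2 start regions with the largest score changes described below. They were read from the GRCh37 genome on the strand named, 5′ to 3′, and capitals mark each match to TGACNNNGC. At MAFG the copy of the first stretch lies at +764 and that of the second at +4114 from the canonical start, both in introns, and the other match of the first stretch lies at +624. The copies by SQSTM1 lie at -348 and -1316, upstream of the canonical start and inside introns of longer SQSTM1 transcripts.
MAFG chr17:79884783-79885011, plus strand: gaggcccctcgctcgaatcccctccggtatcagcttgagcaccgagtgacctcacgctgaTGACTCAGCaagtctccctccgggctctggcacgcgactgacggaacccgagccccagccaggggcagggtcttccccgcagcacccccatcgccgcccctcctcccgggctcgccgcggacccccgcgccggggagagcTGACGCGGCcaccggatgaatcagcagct
MAFG chr17:79881433-79881561, plus strand: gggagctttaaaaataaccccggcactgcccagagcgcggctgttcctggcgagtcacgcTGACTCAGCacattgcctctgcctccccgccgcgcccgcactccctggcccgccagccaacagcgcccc
SQSTM1 chr5:179247493-179247621, minus strand: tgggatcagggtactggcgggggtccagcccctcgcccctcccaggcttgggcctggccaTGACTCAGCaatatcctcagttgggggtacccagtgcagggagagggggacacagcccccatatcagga
SQSTM1 chr5:179246525-179246653, minus strand: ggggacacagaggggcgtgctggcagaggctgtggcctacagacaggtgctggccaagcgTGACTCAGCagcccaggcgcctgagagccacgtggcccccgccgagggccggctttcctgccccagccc

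Further copies of TGACTCAGC lay by BACH1, at +1398 and +92973 from its canonical start, and by MAFK at +278, and are shown as 29-base windows so that the letters next to the core can be set beside those of MAFG and SQSTM1. The 2 matches in the KEAP1 start region, neither of that form, are given with them because KEAP1 has no other region. Both KEAP1 matches lie in a UTR, and the windows by BACH1 and MAFK lie in introns.
BACH1 chr21:30672627-30672655, minus strand: ctggggcgaaTGACTCAGCaacccaactt
BACH1 chr21:30764202-30764230, minus strand: aaatactatgTGACTCAGCagtcccatta
MAFK chr7:1570602-1570630, minus strand: caggcggccgTGACTCAGCggccaggtag
KEAP1 chr19:10613460-10613488, plus strand: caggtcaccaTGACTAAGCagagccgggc
KEAP1 chr19:10613483-10613511, minus strand: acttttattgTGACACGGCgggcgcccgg

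In all, TGACNNNGC matched 95 times in the 50 circuit regions, in 32 of them, or 0.449 matches per kb against 0.396 per kb over all 49154 regions searched. Among the 10 promoters, taken as the 250 bases before and 50 after the canonical start, those of MAFF and MAFK held a match, against 14.04% of 19504 promoters of coding genes. Such matches describe the letters only.

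For each region and library the value used was the percentile of its highest peak by fold enrichment within that library's own list, from 0 for the weakest peak to 100 for the strongest, because fold values of different lists are not on 1 scale. Of the 50 circuit regions, 26 were called in all 6 libraries (52.0%, against 34.2% of all regions) and 13 in only 1 or 2. Regions called in at least 3 libraries could be tested, which left 37 of the 50. For the test, ranks within a library were turned into normal scores, with uncalled regions tied at the lowest rank, and the score change is the mean score of the NRF2 siRNA libraries minus that of the controls, in units of the standard deviation of the scores. With limma and Benjamini-Hochberg adjustment over 32673 regions, 1 of the 37 circuit regions fell and 0 rose, against 3.39% of all regions called lower and 2.01% called higher. At an unadjusted p under 0.05, 4 of the 37 were lower and 3 higher, against 10.7% and 11.9% of all regions. The shares in the circuit were near or below these backgrounds, and 2.7% were called lower after adjustment. Scores were lower in 18 of the 37 regions and higher in 19, and their median change of 0.02 lay beside 0.02 over all regions.

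The regions over the genes' own starts differed in direction from the others. Of the 11 tested regions that covered a start of a circuit gene, 10 had a lower mean score with NRF2 siRNA, with a median of -0.21, while 8 of the other 26 were lower, with a median of 0.15. All tested regions over a coding start leaned the same way, with 58.3% lower and a median of -0.06, and regions over no coding start leaned the other way, with 44.5% lower and a median of 0.07. Of regions over a coding start 0.99% were called lower. Regions called in controls alone, such as that over an inner CUL3 start, could only be lower. The difference between the starts and the other regions of the circuit was not tested.

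**Figure D1:**
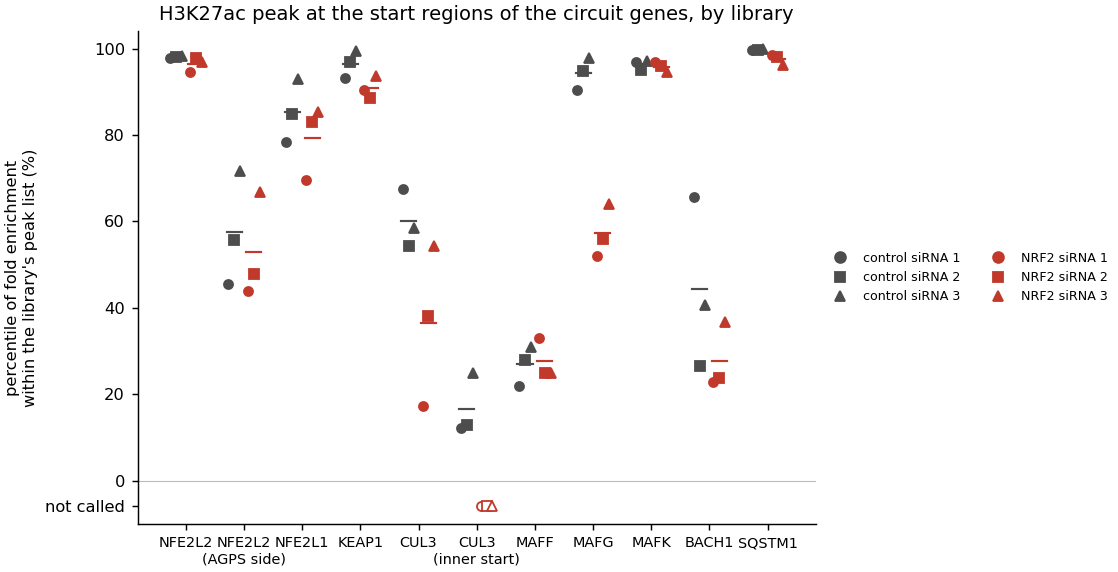
Percentile of the highest H3K27ac peak within each library's own list (vertical axis, %) at the 11 tested start regions of the circuit genes (horizontal axis). Grey symbols are control siRNA, red symbols NRF2 siRNA, the symbol shape gives the replicate, short lines are means of 3 called libraries and open symbols mark libraries with no peak. At MAFG the 3 control libraries sit between 90.4 and 97.9 and the 3 NRF2 siRNA libraries between 52.0 and 64.0, and at most other starts the groups overlap or lie close together.

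NFE2L2, the gene for NRF2, had 12 regions. Its start region, chr2:178124724-178142445 on GRCh37, stood at percentiles of 97.9, 98.1 and 98.2 in control replicates 1, 2 and 3 and at 94.6, 97.9 and 96.8 with NRF2 siRNA. All 6 libraries placed it among their strongest peaks. The score change was -0.20 ± 0.19 (SE, n = 3 against 3), with an adjusted p of 0.602 in limma, so no loss at the NFE2L2 start was detectable. The region held 4 matches to TGACNNNGC, and 84.1% of regions of like length held as many. Downstream of the start, an NFE2L2 region with exons and a UTR, chr2:178102865-178112027, stood at 48.9, 60.7 and 66.5 in the controls and at 74.6, 77.8 and 69.8 with NRF2 siRNA. The groups did not overlap, and the change of 0.46 ± 0.22 had an adjusted p of 0.249.

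The largest change among NFE2L2 regions away from its starts was at chr2:178260407-178264391, which lies in an intron of the neighbouring gene AGPS. Control replicates 1, 2 and 3 placed it at 48.1, 54.3 and 52.1, and the NRF2 siRNA libraries at 69.0, 79.0 and 79.8. Each NRF2 siRNA library was above every control library. The score change was 0.75 ± 0.21 with an adjusted p of 0.0712 in limma, and 0.0393 with the replicate block. A region between this one and NFE2L2, chr2:178256924-178258491, covers the start of AGPS together with that of a long NFE2L2 transcript, and its change was -0.04 ± 0.21 with an adjusted p of 0.944. Of the remaining NFE2L2 regions, 4 were called in 1 library each, among them 1 over a further NFE2L2 start, and the others had changes from -0.59 to 0.20 with no call.

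NFE2L1 had 3 regions, of which only the start region chr17:46124423-46128114 was called often enough to be tested. Its percentiles were 78.3, 84.8 and 92.9 in the controls and 69.5, 83.1 and 85.2 with NRF2 siRNA, so the groups overlapped. The score change was -0.19 ± 0.20, with an adjusted p of 0.634. The peak itself was narrower in each NRF2 siRNA library, at 2143, 2408 and 2348 bases against 2644, 3565 and 2934 in the controls (exact permutation test, two-sided, p = 0.1, the smallest value 3 against 3 libraries allow).

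KEAP1 had a single region, chr19:10610903-10614635, over its start and first exons. It was a strong peak throughout, at 93.2, 96.8 and 99.4 in the controls and at 90.5, 88.6 and 93.7 with NRF2 siRNA. The groups overlapped slightly by percentile, control replicate 1 lying just below NRF2 siRNA replicate 3, and did not overlap by normal score. The change was -0.57 ± 0.26 with an adjusted p of 0.231 in limma, and the changes within replicates 1, 2 and 3 were -0.07, -0.65 and -0.99. Length under the peak separated the groups more clearly, at 3641, 2698 and 3148 bases in the controls and 2042, 1874 and 2008 with NRF2 siRNA, each of the latter shorter than each control (exact permutation test, two-sided, p = 0.1).

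CUL3, the scaffold of the ligase that KEAP1 recruits, had 6 regions. The region over its canonical start, chr2:225448897-225451404, stood at 67.5, 54.2 and 58.4 in the controls and at 17.2, 38.0 and 54.2 with NRF2 siRNA. The NRF2 siRNA libraries spread widely, and the change of -0.37 ± 0.24 had an adjusted p of 0.401. In control replicate 1 the peak was 334 bases long and did not cover the canonical start itself. A region over an inner CUL3 start, chr2:225433247-225435340, was called in 3 of 3 controls, at 12.1, 12.9 and 24.8, and in 0 of 3 NRF2 siRNA libraries, with a change of -0.69 ± 0.32 and an adjusted p of 0.246. This inner region was tested through the controls alone, so only a fall was open to it. The strongest CUL3 region was in an intron near the far end of the gene, chr2:225348402-225353585, at 97.4, 97.6 and 99.0 in the controls and 99.2, 99.1 and 99.1 with NRF2 siRNA, and it had the largest change of the CUL3 regions away from a start, 0.32 ± 0.20, adjusted p 0.382.

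Among the small MAF genes, MAFG carried the call. Its start region, chr17:79879894-79886752, covers the start, exons and introns of the gene. In the controls it stood at percentiles of 90.4, 94.7 and 97.9, and with NRF2 siRNA at 52.0, 55.8 and 64.0. Every NRF2 siRNA library was thus far below every control library, with means of 57.2 ± 6.13 against 94.3 ± 3.80 (SD, n = 3 each). The score fell by 1.38 ± 0.22 (SE), with an adjusted p of 0.0134 in limma. In each replicate the NRF2 siRNA library was lower, by -0.93 for siRNA 28 and by -1.47 and -1.74 for siRNA 30. Among the 32673 tested regions this change was the 636th from the lowest, within the lowest 1.95%. The adjusted p was 0.0646 without control replicate 2, 0.0659 without control replicate 3 and 0.0762 without NRF2 siRNA replicate 2, settings with 0 to 122 regions called lower anywhere, and 12 of 15 alternatives on this region kept the call.

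The shape of the MAFG peak differed as well. In the controls a single peak ran from -644 to 5618, from -752 to 5144 and from -1142 to 5717 bases around the canonical start. With NRF2 siRNA, replicate 1 had a peak from -641 to 1502 and another from 3698 to 4366, and replicate 2 had peaks from -620 to 1573 and from 3332 to 4835. Replicate 3 kept 1 peak, from -683 to 4868. The gap in the first 2 lay between the copies of TGACTCAGC at +764 and +4114, and each copy stayed under a called peak in all 6 libraries. Length under peaks was 6339 ± 486 bases in the controls and 4019 ± 1398 with NRF2 siRNA (SD, n = 3 each, exact permutation test, two-sided, p = 0.1).

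**Figure D2:**
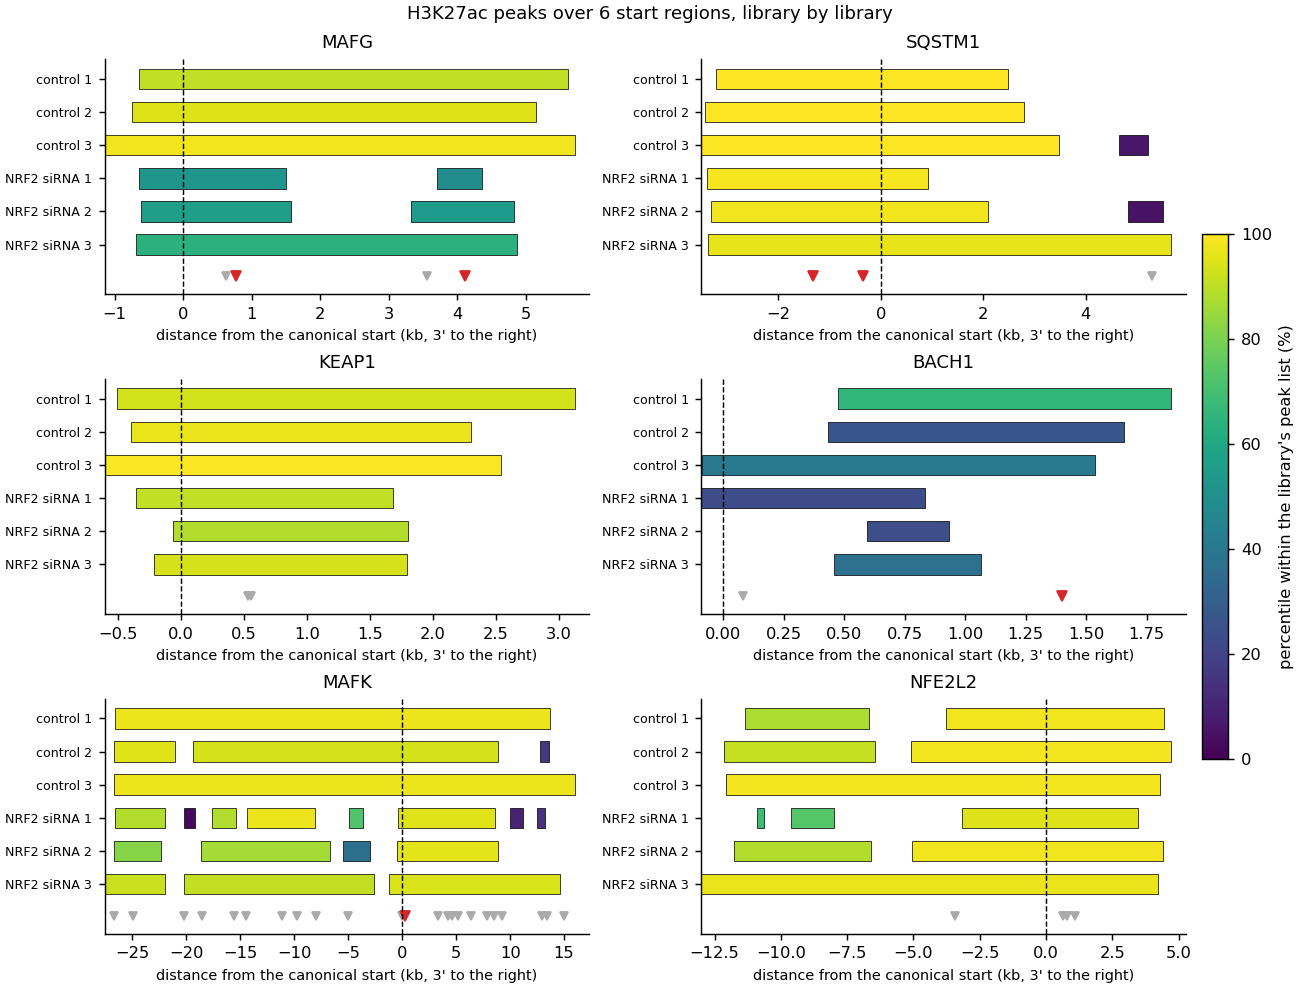
Peaks of each library (rows) over the start regions of MAFG, SQSTM1, KEAP1, BACH1, MAFK and NFE2L2, with distance from the canonical start in kb on the horizontal axis and bar colour giving the peak's percentile within its own list. Red triangles mark TGACTCAGC and grey triangles other matches to TGACNNNGC, and the dashed line is the start. At MAFG the peak of the controls, above a percentile of 90 and about 6 kb long, is weaker with NRF2 siRNA and split in replicates 1 and 2.

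Of the other tested regions around MAFG, 2 had small positive changes and 1, over the start of PYCR1, a negative one, and none was called. The region over the start of the neighbour SIRT7, chr17:79874189-79877141, had a change of 0.02 ± 0.21, and that in ANAPC11, chr17:79854849-79857682, one of 0.26 ± 0.30. The region over the start of PYCR1, chr17:79894434-79895789, had the largest change of the MAFG regions away from its start. It stood at 11.0, 56.9 and 63.8 in the controls, was not called in NRF2 siRNA replicates 1 and 2 and stood at 54.9 in replicate 3, and its change of -0.79 ± 0.37 had an adjusted p of 0.250. The change was negative in each replicate, at -0.41, -1.79 and -0.18, and length under the peak was 830, 770 and 1356 bases in the controls and 0, 0 and 437 with NRF2 siRNA (exact permutation test, two-sided, p = 0.1). Its difference from the change at the MAFG start was not tested.

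MAFF and MAFK, the other small MAF genes, gave no call. The MAFF start region, chr22:38597501-38599300, was weak, at 21.9, 27.9 and 30.9 in the controls and 33.1, 25.0 and 25.0 with NRF2 siRNA, and its change was 0.10 ± 0.31, adjusted p 0.889. The canonical start itself lay under a peak in 2 of 3 controls and in 0 of 3 NRF2 siRNA libraries. The percentiles of the remaining libraries belong to peaks beside it. The peak by MAFF with the largest change lay in an intron of the neighbour TMEM184B, chr22:38623661-38626317. It stood at 86.1, 77.6 and 85.1 in the controls and at 85.9, 96.0 and 95.8 with NRF2 siRNA, so the siRNA 30 libraries were higher and the siRNA 28 library was level with its control. Its change was 0.61 ± 0.23, adjusted p 0.143. It held 4 matches to TGACNNNGC, and 2.8% of regions of like length held as many. A region by MAFG, chr17:79868369-79868850, had the same share, and with 50 regions looked at such a share does not measure enrichment.

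MAFK lies in the broadest region of the circuit, chr7:1542787-1586336, which also covers the start of INTS1. Its highest peak stood at 96.9, 95.0 and 97.1 in the controls and 96.9, 96.0 and 94.5 with NRF2 siRNA, a change of -0.03 ± 0.22 with an adjusted p of 0.952. Height was level, but the peak that covers the MAFK start was not of 1 length. In the controls it was 40369, 28252 and 42690 bases long, and with NRF2 siRNA 9009, 9305 and 15812. Every NRF2 siRNA library had a shorter one than every control (exact permutation test, two-sided, p = 0.1), a measure picked after its values were seen. The domain was split into 8, 4 and 3 peaks with NRF2 siRNA and into 1, 3 and 1 in the controls. The summed length under peaks overlapped between groups, at 40369, 34718 and 42690 bases against 26270, 28283 and 39024 (exact permutation test, two-sided, p = 0.2). A second MAFK region over the start of TMEM184A, chr7:1593047-1597307, had a change of 0.16 ± 0.28, adjusted p 0.797.

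BACH1, the repressor that competes with NRF2, had 9 regions. At its start region, chr21:30671152-30673094, the percentiles were 65.7, 26.6 and 40.6 in the controls and 22.7, 23.7 and 36.8 with NRF2 siRNA, which overlap. The change was -0.21 ± 0.35, with an adjusted p of 0.778. The start itself lay under a peak only in control replicate 3 and NRF2 siRNA replicate 1, the other peaks beginning downstream of it. Length under the peak was 1380, 1221 and 1625 bases in the controls and 926, 339 and 606 with NRF2 siRNA, so every NRF2 siRNA library was shorter (exact permutation test, two-sided, p = 0.1). The copy of TGACTCAGC at +1398 lay under the peak of 3 of 3 controls and of 0 of 3 NRF2 siRNA libraries, since the NRF2 siRNA peaks ended before it. The broad BACH1 region at the far 5′ end, chr21:30543972-30569782, which also covers a UTR of MAP3K7CL, showed length and height going apart. Its length under peaks was 23327, 20660 and 23349 bases in the controls and 13585, 14107 and 13315 with NRF2 siRNA (exact permutation test, two-sided, p = 0.1), while its highest peak stood at 86.5, 67.2 and 78.3 in the controls and at 86.6, 92.5 and 90.1 with NRF2 siRNA. The score change there was 0.56 ± 0.25, adjusted p 0.224.

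The largest change among BACH1 regions away from the start was in an intron, chr21:30688192-30689350, called in 3 of 3 controls at 33.5, 18.6 and 25.0 and in 0 of 3 NRF2 siRNA libraries. The change was -0.87 ± 0.35, with an adjusted p of 0.186 in limma and 0.0219 with the replicate block. The region entered the test through the controls alone, with every NRF2 siRNA library at the tied lowest rank. A fall was thus the only direction open to it, and its p-values are no support for one. BACH2, whose known expression is mainly in lymphoid cells, had no region at its start in any library. Its 3 regions were intronic, and the 2 that were tested had changes of -0.04 ± 0.22 and 0.41 ± 0.36, adjusted p 0.939 and 0.555, with controls of the latter at 19.1, 36.6 and 5.4 and NRF2 siRNA libraries at 6.2, 36.1 and 38.6.

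SQSTM1 had 5 regions. Its start region, chr5:179244403-179253582, was among the strongest in every control, at 99.7, 99.7 and 99.9, and stood at 98.5, 98.0 and 96.1 with NRF2 siRNA. The shift is small as a percentile, yet every NRF2 siRNA library was below every control, with means of 97.5 ± 1.26 against 99.8 ± 0.0833 (SD, n = 3 each). As normal scores, which stretch the top of the list, the change was -0.83 ± 0.22, with an adjusted p of 0.0653 in limma and 0.0410 with the replicate block. Without NRF2 siRNA replicate 1 the adjusted p was 0.0328, and with any other library left out it ran up to 0.196. The change was -0.55 in replicate 1, with siRNA 28, and -0.70 and -1.23 in replicates 2 and 3. Both copies of TGACTCAGC lay under the peak in all 6 libraries, and the length under peaks did not separate the groups, at 6495 ± 941 against 6480 ± 2390 bases (SD, n = 3 each).

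Downstream of SQSTM1, at a UTR of the neighbouring gene MRNIP, chr5:179266321-179267426 was called in 3 of 3 controls, at 6.2, 28.1 and 40.6, and in 0 of 3 NRF2 siRNA libraries. The change was -0.95 ± 0.30, with an adjusted p of 0.0957 and 0.0458 with the replicate block. Without NRF2 siRNA replicate 1 it was -1.27 with an adjusted p of 0.0130 in limma. This region too entered the test through the controls alone. Its direction was fixed in advance, and these p-values are no support for a fall. The region over the start of MGAT4B, upstream of SQSTM1, had a change of -0.18 ± 0.20. Further upstream, a region at a UTR of LTC4S, chr5:179222799-179223880, went the other way. Its change was 0.63 ± 0.33, with an adjusted p of 0.293 in limma.

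**Figure D3:**
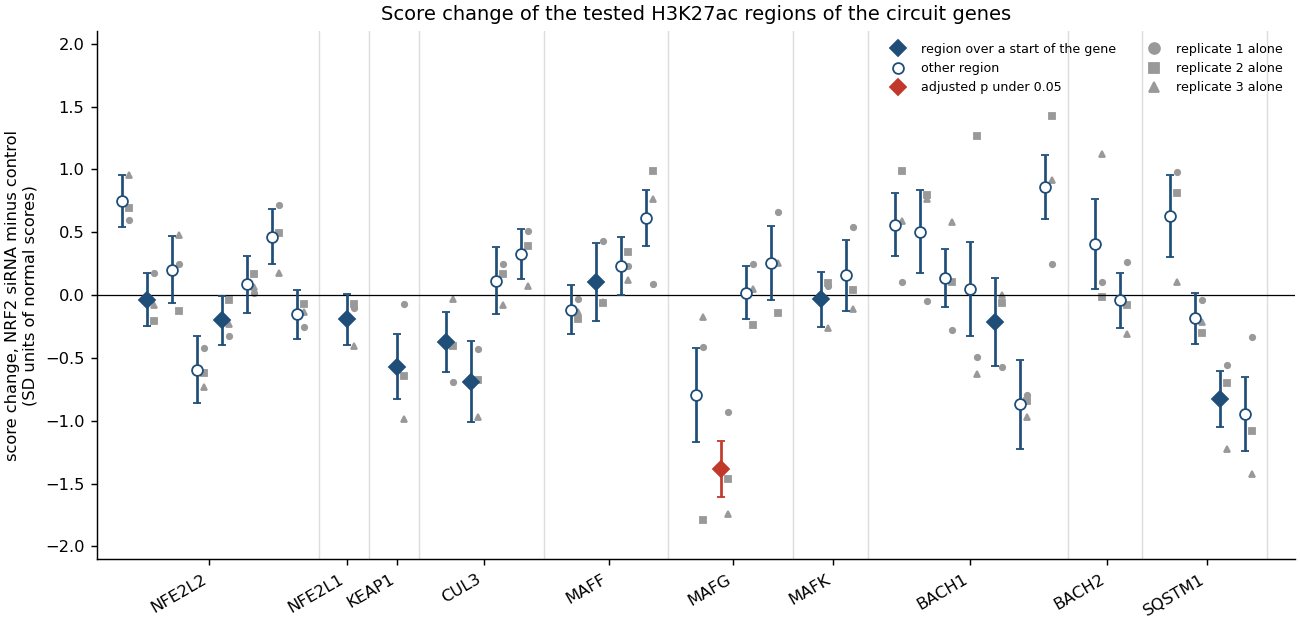
Score change, NRF2 siRNA minus control, in standard deviation units of the normal scores (vertical axis) for the 37 tested regions, grouped by gene and ordered along each gene. Diamonds are regions over a start of the gene, open circles other regions, bars are SE (n = 3 against 3), grey symbols are the changes within each replicate number, and red marks an adjusted p under 0.05. Only the MAFG start, at -1.38, is red, and changes of both signs lie beside it.

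Counted over the circuit, with the replicate number as a block, 4 of the 37 regions were called lower and 1 higher, against 6.62% and 5.72% of all regions. The lower calls were the starts of MAFG and SQSTM1, the region downstream of SQSTM1 and the intron of BACH1, and the higher call was the intron of AGPS by NFE2L2. The region downstream of SQSTM1 and that in BACH1 were tested through the controls alone, so their direction was fixed in advance. Without the block, the groups did not overlap, with NRF2 siRNA lower, in 4 of the 37 (10.8%), and with NRF2 siRNA higher in 5 (13.5%), against 13.6% and 14.6% of all regions. Regions called in 3 of 3 controls and 0 of 3 NRF2 siRNA libraries numbered 3 of 50, by CUL3, BACH1 and SQSTM1, against 2.27% of all regions, and none had the opposite pattern, against 0.83%. All 3 were weak peaks, at or below a percentile of 40.6 in the controls. Each was tested through the controls alone, and its lower score follows from that pattern.

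Length under peaks was shorter in every NRF2 siRNA library than in every control in 5 of the 26 circuit regions called in all libraries, and longer in 0, against 7.65% and 2.9% of all such regions. The 5 were the starts of NFE2L1, KEAP1, MAFG and BACH1 and the far region of BACH1, and of them the MAFG start alone was also called by its score. The lengths overlapped at the starts of NFE2L2, CUL3 and MAFF (exact permutation test, two-sided, p = 0.7, 0.7 and 0.8). The median ratio of mean lengths, NRF2 siRNA to control, was 0.853 in the circuit and 0.925 over all such regions. At the CUL3 start this ratio was 1.281, so the mean was longer with NRF2 siRNA. The median peak of a whole list was 1460, 1521 and 1586 bases long in control replicates 1, 2 and 3 and 1317, 1551.5 and 1644 in the NRF2 siRNA libraries, so the median was shorter with NRF2 siRNA in replicate 1 alone. The total length under peaks of a list was lower with NRF2 siRNA in each replicate. It was 64.71, 84.97 and 113.32 Mb in control replicates 1, 2 and 3 and 46.31, 84.77 and 105.67 Mb with NRF2 siRNA. The part of these list-wide differences in the ratios was not tested.

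**Figure D4:**
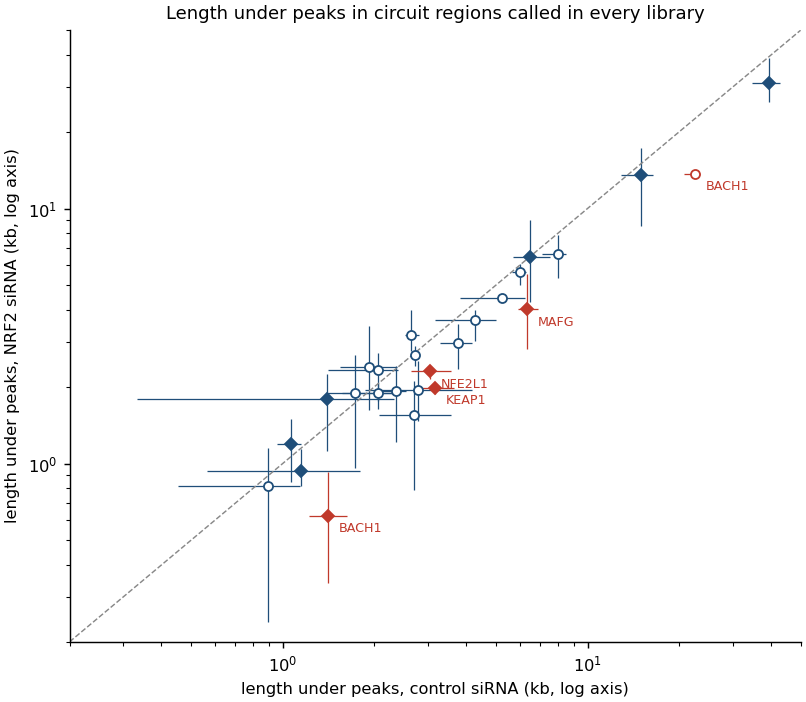
Length under H3K27ac peaks in control siRNA (horizontal axis, kb) and NRF2 siRNA libraries (vertical axis, kb), both on log axes, for the 26 circuit regions called in all 6 libraries. Points are means of 3 libraries, bars run from the lowest to the highest library, diamonds are start regions, the dashed line marks equal length and the named red points are the 5 whose groups do not overlap, all below the line.

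siRNA 28 and siRNA 30 were compared at the same 37 regions as the difference between the change in replicate 1 and the mean change in replicates 2 and 3. In limma 0 regions passed the threshold, 4 had an unadjusted p under 0.05, and over all regions 0 of 32673 passed with 5040 at an unadjusted p under 0.05. With 1 library of siRNA 28 and 1 residual degree of freedom, the absence of calls does not show that the siRNAs acted alike. The siRNA and the batch of replicate 1 cannot be told apart in this comparison.

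Genes next to the circuit were read from lists of known partners. Of 45 tested regions by such genes, 3 were called lower and 2 higher, and 23 had a lower score, with a median of -0.03. With the replicate block 4 were called lower and 3 higher. Over all regions the shares were those given above for the circuit, 3.39% lower and 2.01% higher without the block and 6.62% and 5.72% with it. On the ligase and kinase side (RBX1, CUL1, SKP1, BTRC, FBXW11, GSK3A, GSK3B and SYVN1) 1 of 19 was lower and 2 were higher, with an intronic CUL1 region at -1.46 ± 0.30 (adjusted p 0.0288 in limma), an intronic BTRC region at 1.92 ± 0.33 (adjusted p 0.0157) and a region by GSK3A in an intron of DEDD2 at 0.95 ± 0.23 (adjusted p 0.0448). BTRC encodes a substrate receptor of another ligase that turns NRF2 over, and GSK3A a kinase that marks NRF2 for it. The CUL1 region was called in 3 of 3 controls and 0 of 3 NRF2 siRNA libraries and the BTRC region the other way round. Such regions enter the test through 1 group alone, so their direction was fixed in advance. None of the 5 tested regions by proteins that bind KEAP1 (DPP3, PALB2, AMER1 and PGAM5) passed, with 1 at an unadjusted p under 0.05. Of 5 tested by the remaining cap'n'collar genes and large MAF genes, 1 fell, by NFE2L3, at -1.83 ± 0.30 (adjusted p 0.0134 in limma). That region holds a UTR and exons of both NFE2L3 and HNRNPA2B1, and the nearest canonical start is that of HNRNPA2B1. It too was called in 3 of 3 controls and 0 of 3 NRF2 siRNA libraries. Of 16 by coactivators and corepressors of NRF2 (CREBBP, EP300, SMARCA4, MED16, CHD6 and RXRA) 1 fell, in exons of RXRA, a nuclear receptor that can bind NRF2, at -1.35 ± 0.21 (adjusted p 0.0122). With 1 library left out, the calls by CUL1, BTRC, NFE2L3 and RXRA held for some of the 6 libraries and not for others, with adjusted p from 0.00326 for NFE2L3 to 0.119 for CUL1, and that by GSK3A held for none, with adjusted p from 0.0625 to 0.179.

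For scale, regions by 6 genes known as NRF2 targets (NQO1, GCLM, GCLC, TXNRD1, SRXN1 and SLC7A11) were read in the same way. Of 24 tested, 20 had a lower score, with a median of -0.63 against 0.02 in the circuit, and 2 were called lower, by GCLC at -1.37 ± 0.22 and at the start of SRXN1 at -1.06 ± 0.21 (adjusted p 0.0134 and 0.0267 in limma, and up to 0.0698 and 0.126 with 1 library left out), against 3.39% of all regions. With the replicate block 7 of the 24 were called lower and 0 higher, against 6.62% and 5.72% of all regions. Of the 24, 3 were called in controls alone and could only be lower. The start region of NQO1 stood at 99.3, 99.1 and 99.4 in the controls and 95.1, 87.2 and 94.5 with NRF2 siRNA, a change of -0.94 ± 0.23 with an adjusted p of 0.0509, and 0.0223 with the replicate block. The change of the MAFG start, -1.38, lay beside that of the GCLC region, and the change of the SQSTM1 start, -0.83, within the error of that of the NQO1 start. The difference between the lists was not tested.

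**Figure D5:**
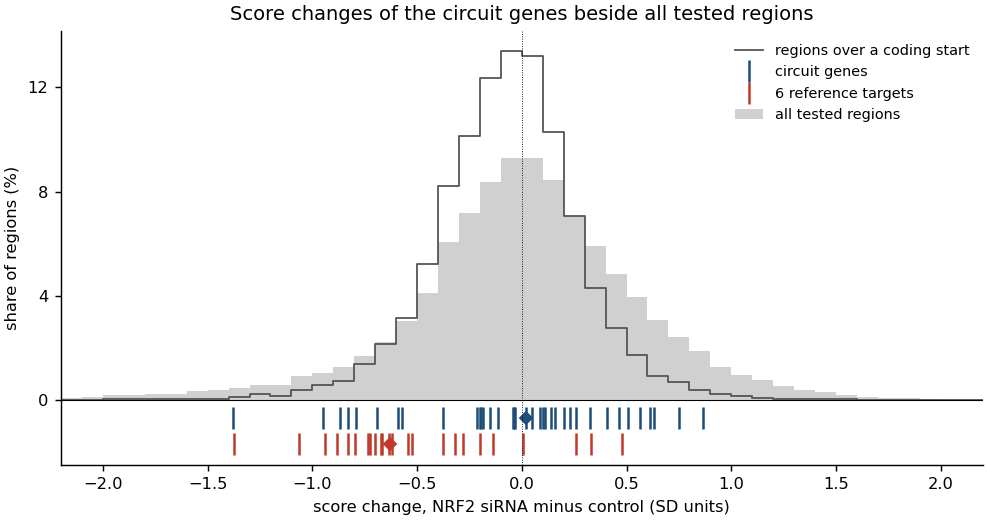
Share of regions (vertical axis, %) by score change, NRF2 siRNA minus control (horizontal axis, standard deviation units), for all 32673 tested regions (grey bars) and those over a coding start (line). Ticks below are the 37 circuit regions (blue) and the 24 regions by 6 known targets (red), with diamonds at the medians of 0.02 and -0.63. The circuit spreads to both sides of 0, with the MAFG start at its lower end.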

How the data were processed

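H3K27ac ChIP-seq libraries of A549 cells were given as broad peak lists, 1 per library. Single-end reads were mapped by the authors with Bowtie2 2.2.6 to hg19, poorly mapped reads were filtered out (SAMtools), MACS2 2.1.0.20151222 called the broad peaks of each library separately, and blacklisted peaks were removed. The deposited ratio column, fold enrichment over a background not given in the sources used here, was used for ranks within a list. The deposited −log10 q-value was used for a stricter alternative, q at most 1e-05. The authors' integer score and −log10 p columns were not used. All 24 chromosomes with peaks were found in GRCh37 with 0 peaks past an end, and 136 of 202238 peaks lay elsewhere. Genes and starts came from GENCODE lifted to GRCh37.

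Regions were merged at an overlap of 1 base, and those called in at least 3 libraries were tested with limma 3.58.1 in R 4.3.3 (lmFit, eBayes) on normal scores, adjusted by Benjamini-Hochberg, threshold 0.05. The test was checked on simulated data. Single values were compared by exact permutation over libraries. Deviations from the group means correlated within replicate numbers (r of 0.398, 0.199 and 0.363 for numbers 1, 2 and 3, across regions), so the numbers were taken to pair the libraries and a fit with the number as a block was run. Between unlike numbers r ran from -0.383 to 0.107, and centring within groups pushes these values down. Pairing by experiment was not tested apart from list length and depth. The genes and lists were chosen with earlier results of these data known. Named regions were each gene's start regions, the largest change among its other regions, and every region past the threshold, and others named were picked after their values were seen. Alternatives covered list length, peak strength, region definition, flank, library left out and, chosen after seeing the data, the peak over the canonical start. One marker gene and one motif window are not reported here.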

Additional observations from a re-analysis of the deposited data

How the results depend on the processing

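The call at the MAFG start kept its direction in every alternative run. For the 37 circuit regions, lower and higher calls numbered 4 and 1 with the replicate block. They numbered 2 and 1 with a trended robust fit and 4 and 2 with only replicates 2 and 3. With equal list lengths 27 circuit regions were tested, and calls numbered 2 and 1 with or without the block. Of the 26 circuit regions called in all 6 libraries, 1 was called lower and 1 higher. A flank of 100 kb, which takes in further regions, gave 3 lower calls and 0 higher. The block changed no call of the circuit other than those given with their regions. The median change was 0.0806 over the 27 circuit regions tested with equal list lengths, with or without the block. It was -0.0724 over the 23 tested at q at most 1e-05 and -0.0619 over the 37 with only replicates 2 and 3. Leaving out 1 library at a time gave 0 to 3 lower calls, 0 to 1 higher calls and medians from -0.115 to 0.0766. Over all regions, lower and higher calls numbered 2164 and 1868 of 32673 tested with the block. With only replicates 2 and 3 they numbered 1975 and 1719 of 32673, and with the trended robust fit 1499 and 1175 of 32673. With equal list lengths they numbered 1320 and 1185 of 23178, and 2040 and 2150 of 23178 when the block was added. They numbered 451 and 263 of 17582 at the stricter q and 369 and 341 of 16845 for regions called in all 6 libraries. Leaving out 1 library gave 0 to 1716 lower and 0 to 882 higher calls. Both counts were 0 in limma without control replicate 2, where 2957 regions were lower and 3076 higher at an unadjusted p under 0.05. The cause was not tested beyond the smaller number of libraries.

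Some small changes that were not called turned sign when 1 library was left out. The ranges over the 6 libraries were -0.115 to 0.0919 at the NFE2L2 region shared with AGPS, -0.215 to 0.337 at the MAFF start, -0.166 to 0.0878 at the MAFK start, -0.132 to 0.337 by TMEM184A, -0.426 to 0.183 at the BACH1 start and -0.0413 to 0.639 at the BACH2 region with the larger change. With only replicates 2 and 3 the MAFF start was at -0.0619 and the region by TMEM184A at -0.0374. The percentile difference at MAFG was -37.1, and -49.7 with equal list lengths. The peak lists give no depth, so a region without a peak is one not called, which is not evidence that acetylation was absent.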

Other observations

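In an intron of BACH1, 3 neighbouring regions between 82491 and 105564 bases downstream of the canonical start were called mainly with siRNA 30, and were picked after their values were seen. The regions at chr21:30753734-30755154 and chr21:30775896-30776807 were called in NRF2 siRNA replicates 2 and 3 alone, at 12.7 and 10.5 and at 8.0 and 29.3. The region between them, chr21:30764041-30765575, which holds TGACTCAGC at +92973, stood at 39.0 and 47.5 in NRF2 siRNA replicates 2 and 3 and at 19.9 in control replicate 3, and was not called in the other 3 libraries. Its score change was 0.86 ± 0.26 with an adjusted p of 0.0856 in limma. The library with siRNA 28 called none of the 3, and siRNA and batch cannot be told apart there.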
